A study of Mus musculus with 2 samples.

Results

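Stretches of adult mouse cortex RNA that lay far from every annotated gene were examined. A contig here is a stretch of one DNA strand that was covered without a break by RNA reads. The contigs described were nuclear, at least 1000 nt long and had an irreproducibility of at most 0.1. Each lay more than 10 kb from every gene span of the Ensembl 65 table on either strand. These are called far contigs, and there were 11930 of them among 862036 nuclear contigs on the mm9 assembly, and 7.02% of the 169909 contigs of that length and irreproducibility. They were chosen by position, measured length and irreproducibility, and their lengths and levels are given as a description. All RNA came from 1 group, called adult cortex: cortical plate of C57BL/6J mice of 8 weeks, with male and female littermates pooled, sampled as 2 libraries labelled biological replicates 1 and 2. RNA longer than 200 nt was polyadenylated and rRNA-depleted, and was read from both ends with strand kept, with spike-in RNAs added. No second condition existed, so nothing was compared between conditions.

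A gene annotation is a list of known transcripts, and it grows as more tissues and splice forms are read. RNA between listed genes is known to include long noncoding RNAs and unlisted outer exons and introns of neighbouring genes. Long neuronal genes are known for very long first introns and for several alternative starts.

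The gene tables on mm10 held 91875460 expected counts in replicate 1 and 92939474 in replicate 2. Markers of cortical cells were present in both, with the synaptic gene Snap25 at 1590 and 1460 TPM and the myelin gene Mbp at 1810 and 2220 TPM in replicates 1 and 2. The striatal gene Drd2 was at 0.8 TPM in replicate 1 and 12.5 TPM in replicate 2, and Adora2a was at 1.44 and 14 TPM. Markers of other regions were higher in replicate 1, with the cerebellar gene Pcp2 at 3.23 and 0.09 TPM, and the hippocampal genes Dsp at 1.13 and 0.03 TPM and Prox1 at 4.51 and 2.78 TPM in replicates 1 and 2. The contig table holds 1 value for both libraries together, so the part of these differences in any contig was not tested. The junction table gives reads in a pair of columns, written first and second here, which are not assigned to a replicate.

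The sequences shown first are the promoters of genes whose far contigs hold the outer end of a known first intron. A gene was counted only if its RefSeq start lay within 50 nt of a transcript start in the later GENCODE M21 annotation. In 43 such genes, the first intron of that transcript had exactly the length of a junction with a splice site outside the Ensembl 65 span. In 10 of the 43, the junction began inside a far contig. The 4 of those 10 with the most far coverage are printed from RefSeq on GRCm38.p6, with 250 bases before and 50 after the RefSeq start, and they were chosen after the values were seen. Capitals mark GGGCGG or its reverse complement, a GC box, which 35.7% of 32851 RefSeq promoters hold on either strand.
Kcnma1: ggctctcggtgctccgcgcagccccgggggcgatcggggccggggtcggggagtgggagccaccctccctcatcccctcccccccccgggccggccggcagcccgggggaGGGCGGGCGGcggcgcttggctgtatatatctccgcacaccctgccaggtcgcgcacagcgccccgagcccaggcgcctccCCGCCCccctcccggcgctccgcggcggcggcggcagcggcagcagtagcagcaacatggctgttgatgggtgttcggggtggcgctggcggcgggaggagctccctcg
Tmem132b: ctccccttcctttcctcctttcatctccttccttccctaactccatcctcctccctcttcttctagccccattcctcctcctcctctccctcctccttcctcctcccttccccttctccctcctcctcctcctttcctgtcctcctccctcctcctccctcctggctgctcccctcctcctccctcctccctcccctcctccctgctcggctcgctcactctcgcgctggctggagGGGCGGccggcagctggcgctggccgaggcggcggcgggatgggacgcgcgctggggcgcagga
Lingo1: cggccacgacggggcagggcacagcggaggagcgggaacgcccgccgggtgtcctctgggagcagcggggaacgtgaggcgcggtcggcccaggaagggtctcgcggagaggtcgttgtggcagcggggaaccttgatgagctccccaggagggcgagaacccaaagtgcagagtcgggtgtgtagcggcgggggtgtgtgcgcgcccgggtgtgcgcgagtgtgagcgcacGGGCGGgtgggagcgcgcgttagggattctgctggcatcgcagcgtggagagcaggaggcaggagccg
Myo16: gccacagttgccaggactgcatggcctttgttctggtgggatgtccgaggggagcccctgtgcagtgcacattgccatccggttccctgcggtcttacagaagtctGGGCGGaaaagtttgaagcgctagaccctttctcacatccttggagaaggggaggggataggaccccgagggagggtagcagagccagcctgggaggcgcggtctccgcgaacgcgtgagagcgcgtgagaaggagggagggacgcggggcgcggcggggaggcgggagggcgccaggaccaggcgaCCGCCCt
The Kcnma1 promoter lies at chr14:24004156-24004455 on the minus strand of GRCm38.p6, that of Tmem132b at chr5:125532168-125532467 on the plus strand, that of Lingo1 at chr9:56796261-56796560 on the minus strand and that of Myo16 at chr8:10153661-10153960 on the plus strand. They hold 36, 15, 35 and 23 CG pairs in the same order, beside a median of 7 over all promoters. None of the 4 holds TATAAA, which 13.6% of all promoters hold.

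Kcnma1 encodes the large-conductance calcium-activated potassium channel. Its Ensembl 65 span was 505 kb, and 7 far contigs lay upstream of it, between 10.1 and 187 kb away. A junction over 200446 nt joined the farthest of them to the gene with 103 reads in the first column and 151 in the second. That contig, chr14:24809617-24824368 on mm9, had a level of 1.66. The other 6 had levels of 0.857, 0.437, 0.318, 0.27, 0.209 and 0.181 in order towards the gene. The level was lower at every step from the outer end to the annotated end. The contig at 0.857, chr14:24677212-24808614, was 131403 nt long and the longest far contig of all. Of the 29 introns of the M21 transcript with that first intron, 28 had the length of a junction in the gene span once grown by junctions. This count and those that follow include junctions inside the Ensembl 65 span, so they do not measure the far part alone. The first intron of Tmem132b, of 89770 nt, had 85 and 115 reads, and 8 of 8 introns matched in length. That of Lingo1, which encodes a neuronal membrane protein that restrains myelination, was 20341 nt with 116 and 125 reads, and 4 of 4 matched. That of Myo16, an unconventional myosin, was 118287 nt with 16 and 28 reads, and 15 of 16 matched.

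Most far contigs were short and low. The level is the authors' value, and 1 unit equals a mean depth of 53.6 reads per base over both libraries, as worked out from the table. The median level was 0.113 in far contigs (95% order-statistic interval 0.112 to 0.115), 0.11 in contigs within 10 kb of a gene, 0.124 in contigs antisense to a gene and 0.181 in contigs inside a gene on its strand. The median lengths were 1654, 1580, 1707 and 2157 nt in the same classes. Far contigs ran from 0.026 to 52.5 in level and covered 33.4 Mb in all. They held 1.22% of the coverage of all nuclear contigs, against 85.8% for contigs inside genes. Level above 1 was reached by 198 far contigs (1.66%) and by 14.7% of contigs inside genes.

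**Figure D1:**
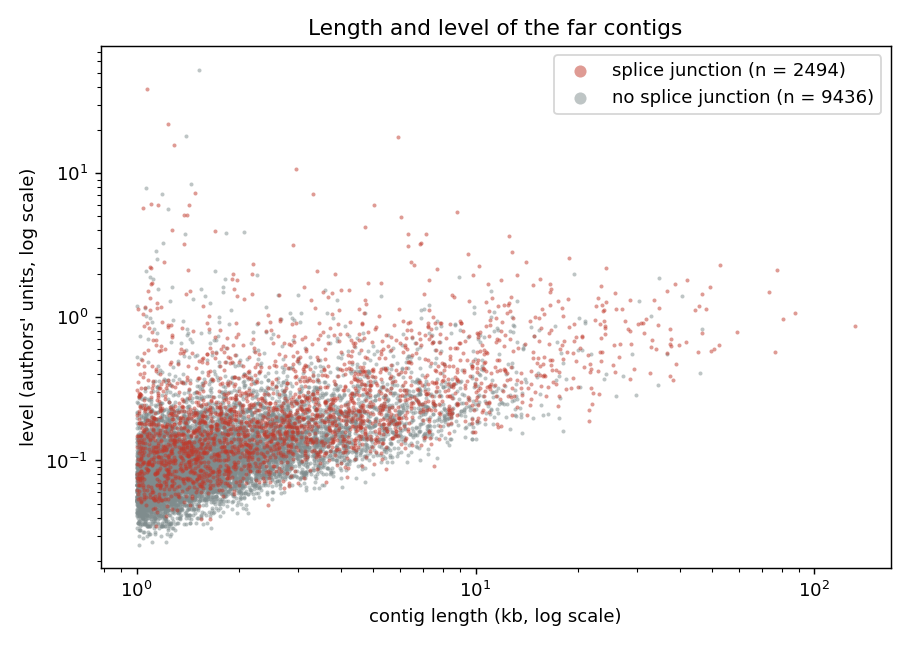
Length in kb (x axis, log scale) and level (y axis, log scale) of each of the 11930 far contigs; red points hold a splice site of a junction with at least 2 reads and grey points hold none. Red points take up a growing share towards the right, and the highest points are shorter than 10 kb.

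Longer contigs were higher in level and more often spliced. Median level was 0.09 in the 7385 contigs under 2 kb and 0.708 in the 113 of at least 20 kb, with 0.146, 0.242 and 0.4125 in the classes between. Splice sites were held by 13.9%, 25.7%, 41.6%, 61.7% and 81.4% of the contigs in the same 5 classes of length. A contig is by definition unbroken coverage, so its length depends on depth, and length and level are not independent. A longer contig also has more room for a splice site. Neither was corrected for. The 113 longest held 28.8% of all far coverage.

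Splicing is the joining of exons across an intron, and a read that spans a junction marks a processed RNA. Of the far contigs, 2494 (20.9%, exact 95% interval 20.2 to 21.6) held a splice site of a junction with at least 2 reads. This share was 18.6% near genes, 28% antisense and 42.9% inside genes, and 39.4% over all contigs of that length and irreproducibility. With at least 10 reads it was 6.28% of far contigs, and was not computed for the other classes. For junctions with reads in both columns, at least 5 reads and an irreproducibility of at most 0.1, it was 8.73% of far contigs. That stricter share was 7.4% near genes, 11.4% antisense and 36.7% inside genes. Junctions ran straight into a same-strand gene from 356 far contigs (2.98%, interval 2.69 to 3.31), beside 4.72% near genes and 6.2% antisense. The share was 42.4% inside genes and 36.1% over all such contigs. For a contig inside a gene, a junction within that same gene counts, so these shares are high largely by definition. An assembled model, built by the authors from the same reads, overlapped 85.9% of far contigs on their strand, beside 83.7% of all such contigs. Any overlap with the span of a model counts here, introns included. An exon of a model overlapped 71.5% of far contigs, 68.2% near genes, 37.4% antisense and 48.6% inside genes. Since the models come from the same reads, this is no separate measurement.

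**Figure D2:**
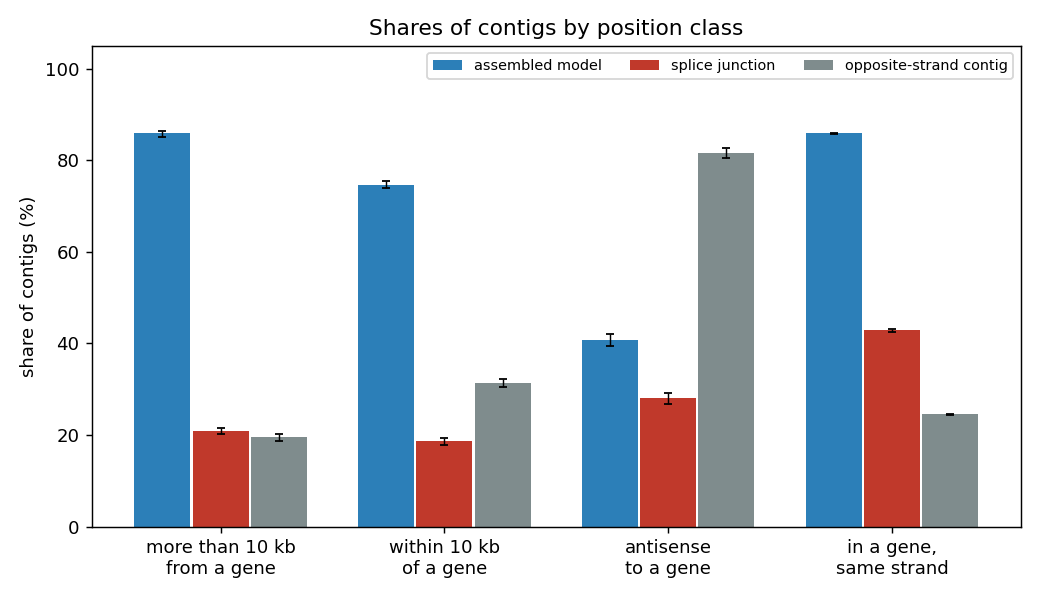
Share of contigs (y axis, %) in each position class that overlap the span of an assembled model (introns included), hold a splice junction or overlap a contig of the other strand. Bars are shares and error bars exact 95% intervals. Far contigs are the left group, with 85.9%, 20.9% and 19.5%.

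Junction reads were close in both columns. For the 668 far contigs with at least 20 junction reads, the median absolute log2 ratio of the columns, scaled to their totals, was 0.34, and 81 of them (12.1%) differed by more than 2-fold. All 668 had reads in both columns. Over 728 assembled exons in far contigs with a mean RPKM between 0.124 and 0.257, the median absolute log2 ratio of RPKM + 0.1 was 0.17, against 0.22 for 17725 exons in contigs inside genes at that level.

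**Figure D3:**
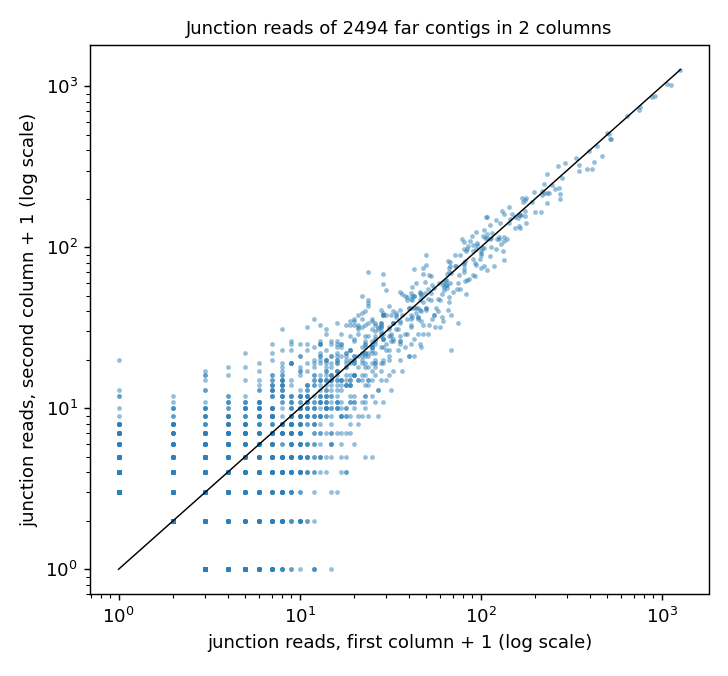
Junction reads of the 2494 far contigs with a splice junction in the first column (x axis) and in the second (y axis), each plus 1, on log scales; the line marks equality. Points with many reads lie near the line, and those with few reads scatter, including contigs read in 1 column only.

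The far contigs with most junction reads included some joined straight to genes of neurons. The contig chr16:6483750-6506394, 303 kb upstream of Rbfox1, a neuronal splicing regulator, had 1269 and 1267 junction reads over 18 junctions, and a level of 1.18. None of its junctions ended in a same-strand gene span, so it was not among those joined straight to a gene. The contig chr13:54406094-54415885 had 1127 and 1017 reads and lay 56.8 kb upstream of Cplx2, a complexin of synaptic vesicle release. Of these, 535 and 469 crossed an intron of 72471 nt into Cplx2. The contig chr16:28718729-28753428 had 1072 and 1029 reads, of which 379 and 403 crossed 354445 nt into Fgf12, a sodium channel regulator of the FGF family. Its nearest gene span was Mb21d2, on the same strand, so the nearest gene was not the one it was joined to.

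The contig chr7:69054138-69060723, 15.1 kb downstream of the gene ENSMUSG00000087490, had 918 and 870 reads over 24 junctions and a level of 2.28. None of these junctions ended in a same-strand gene span either. The contig chr5:24125273-24130447, with 886 and 860 reads, was joined to Smarcd3, a subunit of the BAF chromatin remodelling complex, by 438 and 441 reads over 23720 nt. The contig with most reads into a gene was chr8:55864714-55873893, with 748 and 742 reads over 257677 nt into Gpm6a, a neuronal membrane glycoprotein. Its nearest span was Wdr17, on the other strand. No M21 intron of Gpm6a had the length of this junction, and the M21 span was 106 kb, as in Ensembl 65. The contig chr2:7064620-7106633 had 714 and 690 reads into genes, the strongest single junction of which, with 404 and 383 reads, ended in an identifier without a symbol inside the grown span of Celf2, an RNA-binding protein of splicing.

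Spans of annotated genes were then grown by junctions. Each gene span was widened by same-strand junctions with reads in both columns, at least 5 reads and an irreproducibility of at most 0.1 that began or ended within 500 nt of it, and this was repeated until nothing changed. The rule was chosen after such junctions had been seen. The grown spans took in 3767 far contigs (31.6%, interval 30.7 to 32.4). The share was 23.9% in contigs within 10 kb of a gene and 16.8% in antisense contigs. It was 87.8% over all contigs of that length and irreproducibility. Of these, 83.5% overlap a gene on its strand and so lie in a span by definition. Grown spans on the opposite strand took in 384 far contigs (3.22%), beside 9.56% of contigs within 10 kb of a gene. With splice sites required inside the span, the same-strand share of far contigs was 20.1%. With 20 reads it was 21%, with 1 round 22.4% and with introns of at most 200 kb 20.3%. The 3767 contigs carried 42.8% of far coverage. Their median level was 0.134, against 0.105 in the 8163 others.

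Of the contigs in grown spans, 70.8% lay upstream of their gene. Of far contigs upstream of the nearest gene on its strand, 51.4% lay in a grown span. The share was 27.4% downstream on the same strand, 20.4% upstream on the opposite strand and 19.8% downstream on it. It was 26.8% in contigs under 2 kb and 61.1% in those of at least 20 kb. The 3767 contigs were given to 406 genes, of which 310 were protein coding in M21, and 1103 of them lay in grown spans of several genes, so their gene is uncertain.

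Span lengths could be set beside the later annotation without coordinates. Nav3, a neuron navigator, grew to 773 kb, against 318 kb in Ensembl 65 and 774.9 kb in M21. Cdh12, a cadherin, grew to 1140 kb, which is also its M21 span. Fgf12 grew to 593 kb and has 593 kb in M21. Chrm3, the M3 muscarinic receptor, grew to 483 kb, against 1.95 kb in Ensembl 65 and 485.4 kb in M21. B3galt1, a galactosyltransferase, grew to 557 kb, beside 556.8 kb. Other genes did not match. Rbfox1 grew to 2110 kb, beside 1526 kb in M21, Robo1, an axon guidance receptor, to 1020 kb beside 737.8 kb, and Ppargc1a, a coactivator of mitochondrial genes, to 661 kb beside 113.5 kb. No junction that met the limits for growing spans ran from inside the Ensembl 65 span of Rbfox1, Cdh12 or Ralyl to outside it. Their growth thus rests on sites within 500 nt of the span, and weaker junctions were not counted.

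**Figure D4:**
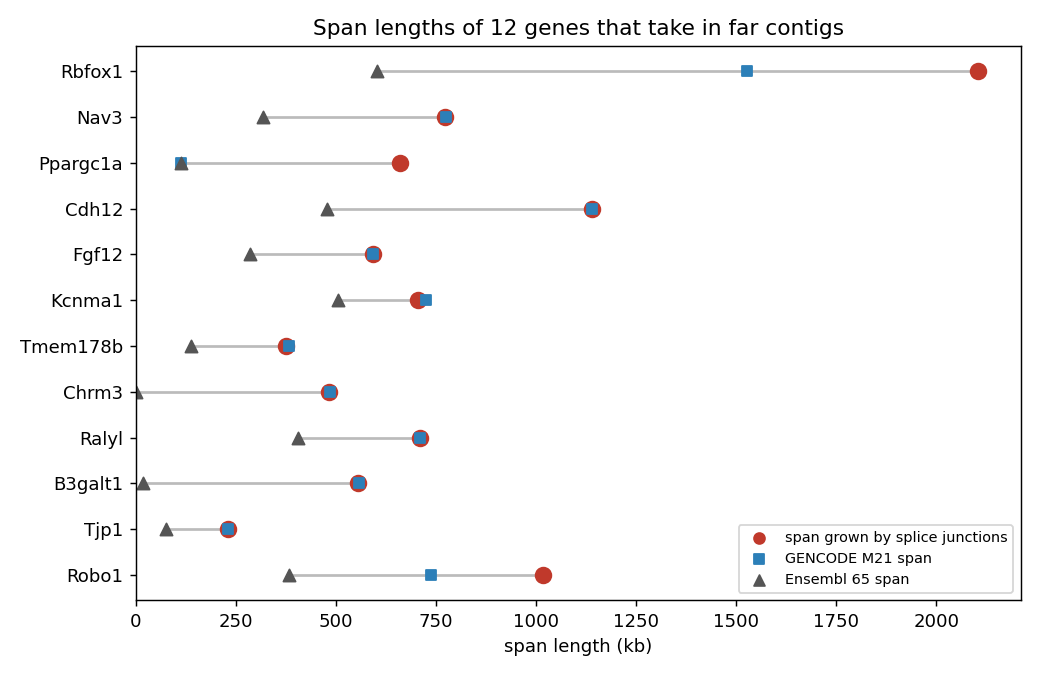
Span length in kb (x axis) of the 12 protein-coding genes with most far coverage and no shared contig; circles are spans grown by junctions, squares the M21 spans and triangles the Ensembl 65 spans. Circles and squares coincide closely for Nav3, Cdh12, Fgf12, Chrm3, Ralyl, B3galt1 and Tjp1, and stand apart for Rbfox1, Ppargc1a and Robo1.

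Counts over all host genes show both outcomes. M21 lists 358 of the 406 genes, and the grown span was within 5% of the M21 length in 88 of the 358. All 88 were among the 146 genes that are longer in M21 than in Ensembl 65 by more than 10 kb, of which 36 grew past the M21 length and 22 stayed short of it. The other 212 genes all grew past their M21 length by more than 5%. To take in a far contig, a gene had to grow by more than 10 kb. A gene not longer in M21 by more than 10 kb therefore had to end past its M21 length. The place of the 88 and the overshoot of the 212 were thus largely set by the rule. Tgfb1, which encodes a transforming growth factor and is named here after its values were seen, grew to 704 kb, beside 18.08 kb in M21, and all 6 of its far contigs lay in grown spans of several genes. For 193 genes the Ensembl 65 span was already within 5% of M21. Of 8014 outer junctions, counted once per gene, 455 (5.68%) had the length of an M21 intron of the same gene, and 157 genes had at least 1 of them. In the 242 genes without a shared contig it was 296 of 1660 (17.8%).

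**Figure D5:**
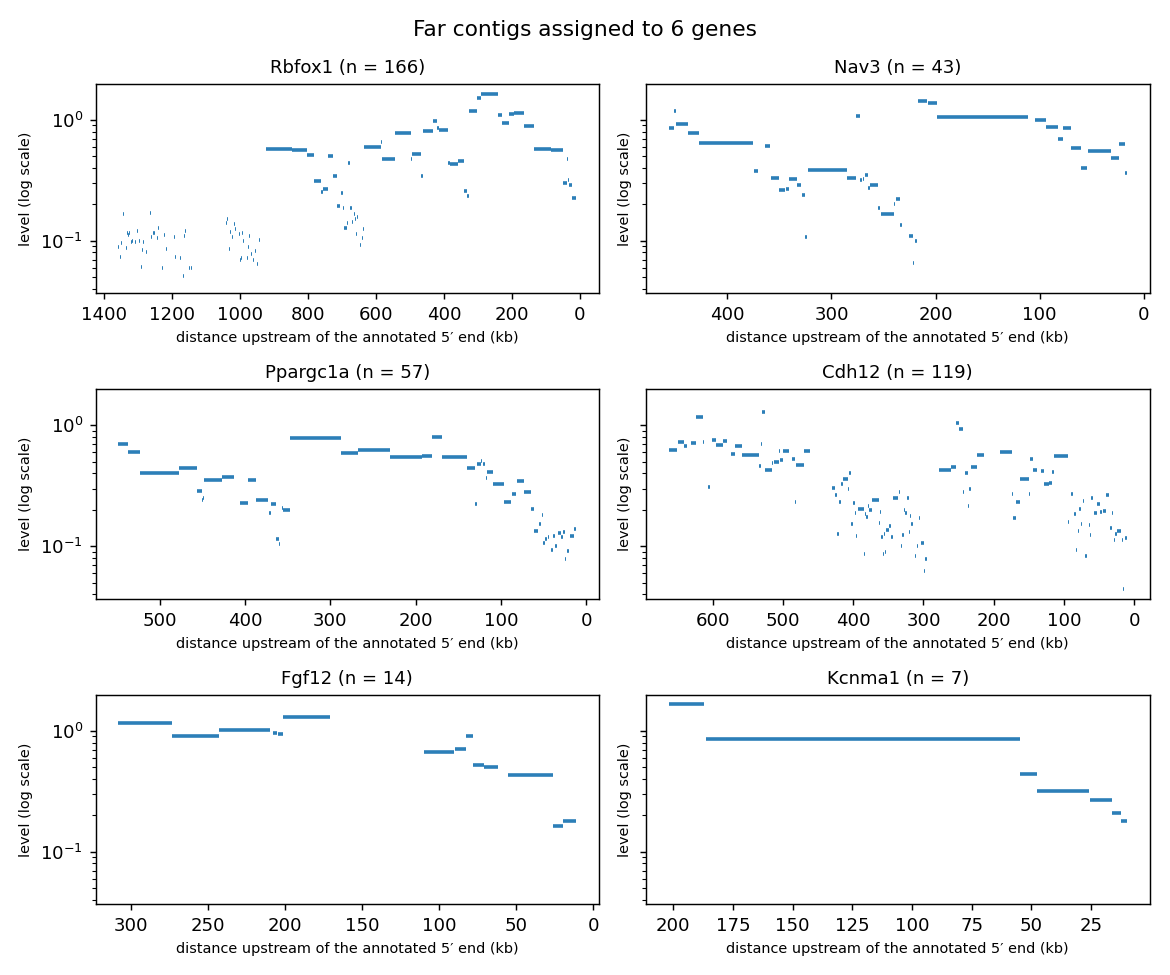
Level (y axis, log scale) of the far contigs against their distance upstream of the annotated 5′ end (x axis, kb, outer end on the left) for 6 genes; each bar is 1 contig with its true length. In Kcnma1 the levels run from 1.66 at the outer end to 0.181 beside the gene, and in Rbfox1, Nav3, Ppargc1a and Cdh12 they rise and fall in several runs.

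Levels were lower towards the 3′ end of most long introns, a pattern sought after the plot of 6 genes had been seen. For 259 introns that enclosed at least 5 far contigs, the rank correlation of level with distance from the intron's 5′ end had a median of -0.43 and was negative in 203 (78.4%). For groups of at least 5 far contigs on one strand, the median was -0.29 in 195 groups mostly in grown spans and -0.09 in 357 others. Contigs of 1 intron share their libraries and are not independent, and the correlations are descriptions.

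With gaps of at most 10 kb they formed 3083 groups, 1489 of them single contigs. The 245 groups of at least 10 contigs held 5767 contigs (48.3%), and the 10 groups with most coverage held 34.7% of far coverage. Chained by gaps of at most 1 kb, through any contig of the same strand, 32.1% of far contigs ran on to an annotated gene. The share was not computed for the other position classes, so it has no background beside it.

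The 10 longest far contigs were 50606 to 131403 nt long with levels of 0.569 to 2.28, and 6 of them lay in grown spans. After the one at Kcnma1 came chr10:109548233-109636131 of 87899 nt, 111 kb upstream of Nav3, at a level of 1.06 with 37 and 49 junction reads. The contig chr5:52246525-52305724 of 59200 nt, at a level of 0.785, was joined over 364014 nt to Ppargc1a by 49 and 50 reads. Longest among those outside grown spans was chr16:74668182-74749175 of 80994 nt, at 0.963 with 23 and 46 reads over 25 junctions. All 10 had a contig on the other strand.

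The strongest groups included regions that junctions did not tie to a gene. A group of 53 contigs at chr16:74625856-75447830 on the minus strand, whose next gene downstream on that strand is the axon guidance receptor Robo2, held 6.86% of far coverage over 822 kb, with 418 and 379 junction reads. Groups of 14 and 35 contigs at chr1:126417233-126742785 and chr1:125973163-126373352 on the minus strand held 5.47% and 4.36%. They lay upstream of Dpp10, which encodes an auxiliary subunit of Kv4 potassium channels. No grown span reached any contig of these 3 groups. A group of 26 contigs at chr8:33610814-33977154 lay 491 to 850 kb upstream of Nrg1, the growth factor neuregulin, outside its grown span. The Nrg1 span is 1069 kb in M21, against 191 kb in Ensembl 65, and the M21 length laid from the older 3′ end takes in all 26. For 142 contigs upstream of Lsamp, a cell adhesion protein, the M21 length of 2197 kb did the same, against 649 kb in Ensembl 65.

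Over all far contigs, laying M21 lengths from the Ensembl 65 3′ ends took in 2263 (19%) on the same strand and 77 (0.645%) on the opposite strand. The other position classes were not measured in this way. Among the 8163 far contigs outside grown spans, the same-strand count was 607 (7.44%). Grown spans and M21 lengths together took in 4374 (36.7%), which leaves most far contigs tied to no gene by either.

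The 10 far contigs with the highest levels were 1063 to 5914 nt long, and most had few junction reads. The contig chr7:123967912-123969435 on the minus strand, 1524 nt long, had a level of 52.5 and no junction read. It lay 127 kb from the nearest gene span, and the assembled model over it had 0.175 and 0.144 RPKM. The contig chrX:45363131-45364202 had 38.4 with 3 and 0 junction reads, and chr10:28749882-28751117 had 22.1 with 3 and 1. The contig chr1:144989832-144991226 had 18 with none. Among the 10 highest, 9 had at most 10 junction reads over both columns, and the exception was chr12:106725564-106731477, 69.9 kb upstream of the bradykinin receptor gene Bdkrb2, with 231 and 188 reads over 9 junctions at a level of 17.9. By the rule of at least 2 reads, 4 of the 10 held no splice site. Of the 21 far contigs with a level over 5, 15 (71.4%) held one, beside 20.9% of all far contigs. The rule was not scaled to depth, so these shares do not compare splicing per read. The chrX contig passed it with 3 and 0 reads at a mean depth of 2060, while the median depth of far contigs was 6.06. None of the 10 highest lay in a grown span, and none had a contig on the other strand.

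Median model RPKM was higher at levels of 1 to 5 than at most 1, and was no higher over 5, in contigs with or without a junction. Where model exons covered at least 50% of the contig, the 6 contigs without a junction and with a level over 5 had a median RPKM of 0.091 at a median level of 8.14. For 5904 contigs without a junction and with a level of at most 1, it was 0.0252 at 0.098. For 36 without a junction and with a level of 1 to 5, it was 0.209 at 1.45. With a junction, it was 0.38 at 6.01 in 13 contigs over 5, 0.395 at 1.435 in 84 of 1 to 5 and 0.0728 at 0.187 in 1107 of at most 1. The classes over 5 are small. Reads that fit several places were handled in a way not given in the sources used here, and their part in these levels was not tested.

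Contigs on the opposite strand overlapped 2324 far contigs (19.5%), beside 26.4% of all such contigs. The share was 2.8% when at least 50% of the far contig had to be overlapped, and 8.43% when the opposite contig had to have an irreproducibility of at most 0.1. The coverage on the other strand was a median of 3.14% of the far contig's own, and above 50% in 246. By any overlap, the share was 13.8% under 2 kb and 77.9% in contigs of at least 20 kb.

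Level varied little with distance from a gene. The nearest gene span was a median of 40.5 kb away, and 2749 far contigs (23%) were more than 100 kb from any. Median level was 0.111 between 10 and 20 kb and 0.112 between 200 and 500 kb. The farthest contigs lay on chromosome 3 1000 to 1030 kb from the nearest span, with levels of 0.038 to 0.201 over 5 contigs. In 19.8% of cases the nearest span was under 300 nt long. At the edges of the rule, the lowest levels among contigs of 1000 nt were 0.044 and 0.053. The highest among contigs of 999 nt were 0.146 and 0.161, so these values do not compare the lengths. Contigs at 10005 and 10006 nt had 0.139 and 0.114, and at 9996 and 9999 nt 0.14 and 0.083. No contig that met the other limits had an irreproducibility over 0.1, the highest being 0.04.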

How the data were processed

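The authors deposited tables on mm9 made from both libraries, and gene tables on mm10 for each. Per the file headers, the mm10 tables give expected counts and TPM, used here for depth and markers. The deposited contig table gives a signal level per contig, which equals summed coverage per kb over 1 constant, as found from its values, and an irreproducibility score. Junction reads are whole-number counts in the deposited junction table, split into a first and a second column. The assembled models and Ensembl 65 genes that the authors deposited carry RPKM in a first and a second field. Aligner, contig caller and model settings are not given in the sources used here, nor which column is which replicate.

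Contigs were classed by position, and splice sites, models, opposite-strand contigs and chains were found by overlap. Gene symbols came from GENCODE M21 and matched 87.4% of identifiers. Shares have exact binomial intervals at 95%, and medians order-statistic intervals; both cover counting over contigs only, and contigs share 2 libraries. No test was made, since there was 1 group. Members, lists and rules were chosen with earlier results of these data known. Named contigs are the 10 highest, the 10 longest, the 5 with most junction reads, the 5 farthest, the leads of the 5 largest groups, the 5 with most reads into a gene, the 3 highest without a junction and those at the thresholds; other groups and genes were named after their values were seen. Several rules for tying contigs to genes were tried, single introns first and repeated growth after. No mm9 genome was used, so no sequence was read at contigs. Interval functions were tested on simulated data. Python 3.11.15, pandas 2.3.3, numpy 2.4.6 and scipy 1.17.1 were used.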

Additional observations from a re-analysis of the deposited data

How the results depend on the processing

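With an irreproducibility of at most 0.01, or a distance of more than 5 kb, the level and the shares for splicing, joining and model cover stayed within their intervals, while the number of far contigs was 11923 and 14987. At a minimum length of 500 nt there were 31214 far contigs with a median level of 0.075, 12.7% with a splice junction, 1.65% joined to a gene and 78.2% under a model, and at 2000 nt 4545 with 0.174, 32.3% and 5.21%. Beyond 20 kb, 2.67% were joined. Beyond 50 kb there were 5192, with a level of 0.117, 19.6% spliced and 2% joined. With same-strand spans alone there were 18577, 22.8% spliced and 73.6% under a model. With 1 read 43% were spliced and 9.88% joined, with 10 reads 6.28% and 0.83%, and with reads in both columns 14% and 2.01%. In 1 column alone, 15.7% to 15.8% were spliced and 2.01% to 2.02% joined. Model cover was 82.1% for an overlap of at least 50% and 87.7% on either strand. Opposite-strand contigs were 2.8% for an overlap of at least 50% and 8.43% with irreproducibility of at most 0.1. Chains reached genes for 59% at 5 kb and 24.8% with irreproducibility of at most 0.1. At gaps of 2 kb there were 5039 groups. The column difference was 0.0433 with a pseudocount of 1, 0.259 with 0.01 and 0.118 without a filter. The rules for grown spans, added after seeing the data, gave 21% with 20 reads, 22.4% in 1 round, 20.1% with sites inside the span, 20.3% with introns of at most 200 kb and 3.22% on the opposite strand. Causes of these shifts were not tested. Depth limits the low contigs, since a level of 0.113 is a mean depth of 6.06. No paired analysis was possible because there is 1 group and no test.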
